A study of Rattus norvegicus with 6 samples.

Results

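The 10 genes described here belong to 2 linked steps of mitochondrial electron transport, coenzyme Q synthesis and the electron transfer flavoproteins. They are Coq3, Coq5, Coq7, Coq8a, Coq9, Coq10a and Pdss2 for coenzyme Q, and Etfa, Etfb and Etfdh for electron transfer. They were chosen by symbol and function from 28293 genes in the table of rat myocardium, and all 10 were found as 1 row each and passed the filter on low values, which 10942 genes did. Myocardial tissue came from wild-type male rats, 3 labelled sham and 3 labelled MI/RI. In MI/RI the left anterior descending coronary artery was tied off for 30 min and the heart was taken after 6 h of reperfusion. The sham samples carry the same 30 min and 6 h in their titles, and the region of the heart that was sampled is not given in the sources used here. The labels do not say whether a replicate number stands for a rat or a pool, so the p-values measure the spread between these samples.

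Coenzyme Q, or ubiquinone, is a lipid of the inner mitochondrial membrane that carries electrons from several dehydrogenases to complex III. Its ring is built by a chain of Coq enzymes that work together at the membrane, and its long isoprenoid tail comes from the mevalonate pathway. Etfa and Etfb encode the alpha and beta subunits of the electron transfer flavoprotein (ETF), a soluble carrier that collects electrons from acyl-CoA dehydrogenases during fatty acid and amino acid oxidation. Etfdh encodes ETF-ubiquinone oxidoreductase, which passes these electrons on to coenzyme Q, so the flavoproteins feed the pool that the Coq enzymes make. The heart relies on fatty acid oxidation for most of its energy. The study followed Hsp27 in this model and COQ9 in cultured cardiomyocytes, and the comparison of MI/RI with sham asks which of these genes differed in RNA level after reperfusion.

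Of the 10 genes, 8 were higher in MI/RI than in sham and none was lower (limma, adjusted p under 0.05). Across all genes tested, 25.5% were higher and 7.36% were lower by the same rule. The median log2 fold change was 1.55 for the 10 genes and 0.29 for all genes tested. All 10 genes also passed a stricter filter, an average of 5 FPKM or more. Under that filter the median of all genes tested was 0.66, nearer to the 1.55 of the 10 genes. There, 1892 of all genes tested were higher and 166 lower (limma). The 8 genes rose by 2.66-fold to 4.70-fold between group means (2.19-fold to 2.96-fold without MI/RI replicate 1, where Coq9 went from 4.70-fold to 2.96-fold), with adjusted p-values between 0.0042 and 0.013 (limma). In these 8 genes every MI/RI sample was above every sham sample, as in 37.2% of all genes tested, and in 0 of the 10 was every MI/RI sample below, as in 13% of all. Coq10a did not pass the threshold, and Etfb, whose mean was lower in MI/RI, did not either. At an unadjusted p under 0.05, the number of lower genes among the 10 was also 0, while Coq10a joined the higher ones. The share of all genes tested at that looser cutoff is not given here. These directions depend on the scaling: when each sample was centred on its cardiomyocyte markers, all genes shifted down together, the median of all genes tested went from 0.29 to -1.98, and with it 9 of the 10 log2 fold changes turned negative and that of Etfb became more negative.

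The libraries were made from total RNA with a stranded kit, and the authors deposited FPKM, which are fragments scaled to gene length and to library size. Absolute depth is unknown. Whole steps in genes of low expression gave depths of 0.873 to 1.18 relative to sham replicate 1, lowest in the 3 MI/RI samples. The 13 mRNAs encoded by mitochondrial DNA took 80.1% to 86.2% of the summed FPKM in sham and 61.8% to 71.5% in MI/RI. The 7 cardiomyocyte markers found (Myh6, Tnnt2, Tnni3, Actc1, Myl2, Ryr2 and Mb) were detected in all 6 samples, as the tissue label says. Their sum was 3400 to 11148 FPKM in sham and 22659 to 32619 FPKM in MI/RI, and 6 of 7 were higher in MI/RI by the limma rule, with a median log2 fold change of 2.28. In bulk tissue, fewer cells of a type and less RNA per cell cannot be told apart.

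**Figure D1:**
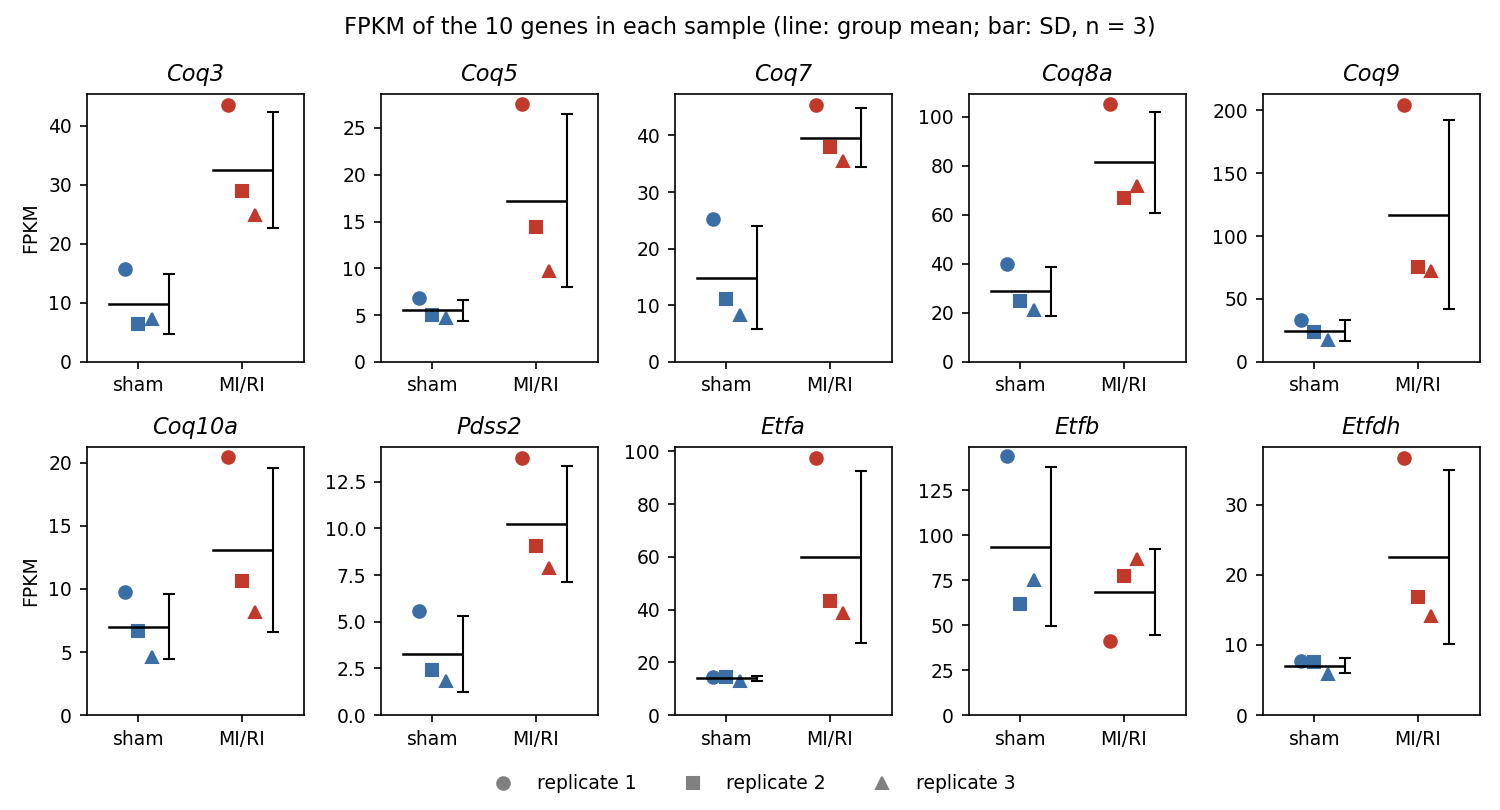
FPKM (vertical axes, linear, from 0) of each of the 10 genes in 3 sham (blue) and 3 MI/RI (red) samples, with a shape for each replicate number, a line at the group mean and a bar for the SD (n = 3). In 8 panels every MI/RI sample lies above every sham sample, while the groups overlap for Coq10a and Etfb. MI/RI replicate 1 is the highest MI/RI sample in 9 panels and the lowest in that of Etfb. On log2 values centred on cardiomyocyte markers, where the median of all genes tested is -1.98, all 10 genes have a lower mean in MI/RI.

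The tail of coenzyme Q is made by a synthase with subunits encoded by Pdss1 and Pdss2. Pdss2 (ENSRNOG00000042962) was at 5.59, 2.39 and 1.82 FPKM in sham, given here and later in the order of the replicate numbers, and at 13.7, 9.07 and 7.90 FPKM in MI/RI. Every MI/RI sample exceeded every sham sample, though sham replicate 1 came within 1.41-fold of the lowest MI/RI sample. The mean rose from 3.27 ± 2.04 to 10.2 ± 3.09 FPKM (SD, n = 3 each), a log2 fold change of 1.74 (SE 0.39, adjusted p = 0.010, limma). Without sham replicate 2 the adjusted p was 0.051 (limma). Pdss2 had the lowest mean FPKM of the 10 genes in both groups.

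Coq3 encodes the O-methyltransferase that acts on the ring at an early and at the last step. Its level (ENSRNOG00000009974) was 15.7, 6.46 and 7.26 FPKM in sham and 43.5, 29.0 and 24.9 FPKM in MI/RI. The groups did not overlap, and the first replicate was the highest of its group in both. The mean rose from 9.80 ± 5.11 to 32.5 ± 9.79 FPKM (SD, n = 3 each), with a log2 fold change of 1.79 (SE 0.36, adjusted p = 0.0067, limma). Coq5, the C-methyltransferase of the ring (ENSRNOG00000001171), was at 6.79, 5.02 and 4.70 FPKM in sham and at 27.5, 14.4 and 9.74 FPKM in MI/RI. Sham samples lay close together and MI/RI samples spread widely, without overlap. The log2 fold change of Coq5 was 1.51 (SE 0.36, adjusted p = 0.012, limma), and its adjusted p was 0.053 without sham replicate 2.

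Coq7 and Coq9 act at the same step. Coq7 is the hydroxylase that prepares the ring for its last methylation, and Coq9 is a lipid-binding partner that Coq7 needs to reach its substrate in the membrane. Coq9 (ENSRNOG00000016190) was at 33.4, 23.9 and 17.4 FPKM in the sham samples (replicates 1 to 3) and at 204, 75.2 and 72.2 FPKM in those of MI/RI. All 3 MI/RI samples were above all 3 sham samples, and MI/RI replicate 1 stood at 2.77 times the mean of the other MI/RI samples. The mean was 24.9 ± 8.04 FPKM in sham and 117 ± 75.2 FPKM in MI/RI (SD, n = 3 each). Its log2 fold change of 2.10 (SE 0.41, 95% interval 1.18 to 3.02, adjusted p = 0.0064, limma) was the largest of the 10 genes, and 2.95% of all genes tested rose more. Without MI/RI replicate 1 it was 1.61, the lowest value with any 1 sample left out, and the call was kept in 6 of 6 such fits.

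Coq7 (ENSRNOG00000017012) was at 25.3, 11.2 and 8.22 FPKM in sham and at 45.4, 38.0 and 35.4 FPKM in MI/RI. Here the MI/RI samples lay close together, and sham replicate 1 was 2.61 times the mean of the other sham samples. The mean was 14.9 ± 9.12 FPKM in sham and 39.6 ± 5.20 FPKM in MI/RI (SD, n = 3 each), a log2 fold change of 1.57 (SE 0.37, adjusted p = 0.013, limma). Without sham replicate 2 the adjusted p of Coq7 was 0.060 (limma).

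Coq8a encodes an atypical kinase-like ATPase that supports the assembled Coq enzymes, and Coq8b is its paralog. Coq8a (ENSRNOG00000043201) was at 40.0, 25.0 and 21.4 FPKM in sham and at 105, 67.0 and 72.0 FPKM in MI/RI. The lowest MI/RI sample was 1.67 times the highest sham sample. The log2 fold change was 1.52 (SE 0.30, adjusted p = 0.0064, limma), with the smallest standard error of the 10 genes. Coq8b was at 1.17, 1.51 and 1.59 FPKM in sham and at 1.48, 3.67 and 3.38 FPKM in MI/RI, so Coq8a was the higher paralog in every sample. Coq8b did not pass the threshold (log2 fold change 0.86, SE 0.34, adjusted p = 0.075, limma), and did so with the replicate number as a block (adjusted p = 0.034, limma) or without MI/RI replicate 1 (adjusted p = 0.013, limma).

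Coq10a and Coq10b encode lipid-binding proteins that coenzyme Q needs to work in respiration rather than to be made. Coq10a (ENSRNOG00000029571) was at 9.72, 6.70 and 4.60 FPKM in sham and at 20.5, 10.6 and 8.17 FPKM in MI/RI. MI/RI replicate 3 was below sham replicate 1, so the groups overlapped. The log2 fold change was 0.84 (SE 0.37, 95% interval 0.0077 to 1.68, adjusted p = 0.11, limma), and 0.47 (adjusted p = 0.32) without MI/RI replicate 1. With the replicate number as a block the adjusted p was 0.012 (limma), which brought the number of higher genes among the 10 to 9, beside 28.2% of all genes tested in that fit. The number of lower genes stayed at 0, beside 8.18% of all genes tested.

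Coq10b, the paralog, did pass the threshold. It was at 4.10, 4.78 and 4.11 FPKM in sham and at 27.3, 38.9 and 22.4 FPKM in MI/RI. The sham samples were nearly equal, and each MI/RI sample was far above them. Its log2 fold change was 2.71 (SE 0.25, adjusted p = 5.0e-04, limma), and 0.923% of the genes tested rose more. Within a sample, the log2 ratio of Coq10a to Coq10b was 1.23, 0.48 and 0.16 in sham and -0.41, -1.87 and -1.44 in MI/RI. Coq10a was thus the higher paralog, in FPKM, in 3 of 3 sham samples, and Coq10b in 3 of 3 MI/RI samples. The ratio fell by 1.86 on the log2 scale (two-sided exact permutation p = 0.1, the smallest that 3 against 3 allows, 0.17 adjusted over 5 ratios). A ratio within a sample does not depend on how that sample was scaled.

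**Figure D2:**
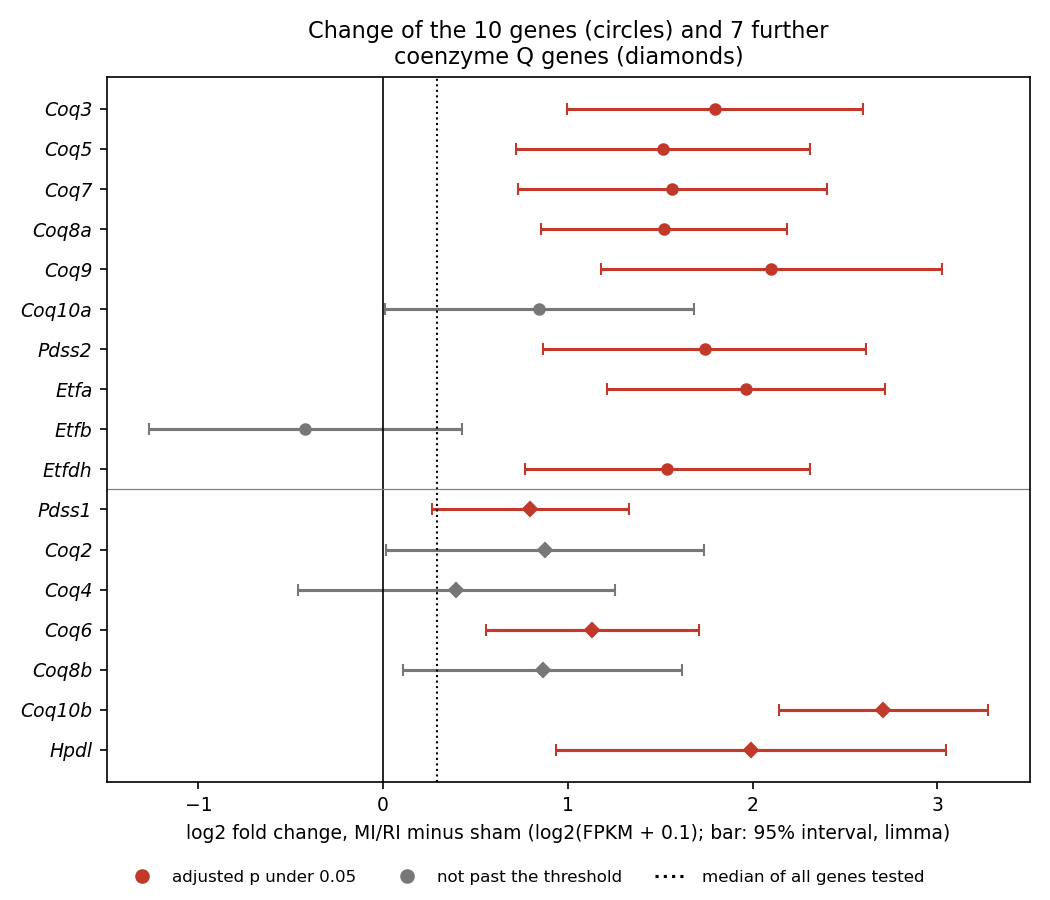
log2 fold change (horizontal axis, MI/RI minus sham) with its 95% interval from limma for the 10 genes (circles) and 7 further coenzyme Q genes (diamonds), in red where the adjusted p is under 0.05. The solid line marks 0 and the dotted line the median of all genes tested, 0.29. On the deposited scale 16 of the 17 points lie above 0 and Etfb lies below it, while centring on cardiomyocyte markers moves every point and the dotted line down together, the line to -1.98 and all 10 circles below 0.

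Etfa and Etfb, whose products form ETF as a pair of unlike subunits, had unlike values. Etfa (ENSRNOG00000015233) was at 14.5, 14.5 and 12.9 FPKM in sham and at 97.5, 43.4 and 38.9 FPKM in MI/RI. The sham samples were nearly equal, and the lowest MI/RI sample was 2.67 times the highest sham sample, the widest gap of the 10 genes. The mean rose from 14.0 ± 0.903 to 59.9 ± 32.7 FPKM (SD, n = 3 each), with a log2 fold change of 1.96 (SE 0.34, 95% interval 1.21 to 2.72, adjusted p = 0.0042, limma).

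Etfb (ENSRNOG00000017851) was at 144, 61.6 and 75.4 FPKM in sham and at 41.5, 77.4 and 86.8 FPKM in MI/RI. The groups overlapped, and the highest sham sample and the lowest MI/RI sample both carry replicate number 1. The mean was 93.7 ± 44.2 FPKM in sham and 68.6 ± 23.9 FPKM in MI/RI (SD, n = 3 each). The log2 fold change was -0.42 (SE 0.38, 95% interval -1.27 to 0.43, adjusted p = 0.42, limma), and 81.7% of the genes tested had a larger one. Without sham replicate 1 and MI/RI replicate 1 together, which is an alternative added once the values were known, the log2 fold change of Etfb was 0.27 with an adjusted p of 0.25 (limma), so its direction on the deposited scale rests on those samples. Etfb was called lower after quantile normalization (-1.37, adjusted p = 0.029, limma), after rescaling without the mitochondrially encoded mRNAs (-1.20, adjusted p = 0.014) and after centring on cardiomyocyte markers (-2.69, adjusted p = 5.4e-08). Smooth muscle markers (Myh11, Tagln, Cnn1 and Acta2, 0 of 4 past the limma threshold) had log2 fold changes of 0.44 to 0.76, above 0 unlike that of Etfb. Within the groups, their sum was, like Etfb, highest of sham in replicate 1 and lowest of MI/RI in replicate 1. The order of sham replicates 2 and 3 was the reverse of that of Etfb. Their sum was 252, 81.2 and 57.3 FPKM in sham and 79.4, 202 and 285 FPKM in MI/RI, and their part in the values of Etfb was not tested.

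The log2 ratio of Etfa to Etfb within a sample was -3.31, -2.08 and -2.53 in sham and 1.23, -0.83 and -1.16 in MI/RI. Every MI/RI sample was above every sham sample, and MI/RI replicate 1 was the 1 sample in which Etfa exceeded Etfb in FPKM. The mean went from -2.64 ± 0.62 to -0.25 ± 1.30 (SD, n = 3 each), a rise of 2.38 (two-sided exact permutation p = 0.1, 0.17 adjusted over 5 ratios). Without sham replicate 1 and MI/RI replicate 1 the rise was 1.31.

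Etfdh (ENSRNOG00000009538) was at 7.78, 7.52 and 5.91 FPKM in sham and at 36.7, 16.9 and 14.1 FPKM in MI/RI. The groups were apart by 1.81-fold at their nearest samples. The mean rose from 7.07 ± 1.02 to 22.5 ± 12.3 FPKM (SD, n = 3 each), a log2 fold change of 1.54 (SE 0.35, adjusted p = 0.010, limma). Its log2 ratio to Etfa was -0.89, -0.94 and -1.12 in sham and -1.41, -1.36 and -1.46 in MI/RI. The ratio was lower in every MI/RI sample than in any sham sample and fell by 0.43 on the log2 scale (two-sided exact permutation p = 0.1, 0.17 adjusted over 5 ratios). The ratios of Coq8a to Coq8b and of Pdss2 to Pdss1 overlapped between the groups, with log2 changes of 0.66 (p = 0.5) and 0.94 (p = 0.3) in the same exact test. Both were unsteady: the change of Coq8a to Coq8b was 0.06 without MI/RI replicate 1, 0.39 without sham replicate 3, 1.05 without sham replicate 1 and 1.01 without MI/RI replicate 2, and that of Pdss2 to Pdss1 was 0.51 without sham replicate 3 and 1.5 without sham replicate 1. Within pairs of the same replicate number, each of these ratios rose in 3 of 3 pairs, by 1.07, 0.19 and 0.71 for Coq8a to Coq8b and by 0.05, 1.02 and 1.76 for Pdss2 to Pdss1. Each of the 5 ratios kept its own direction over the 3 pairs: Coq10a to Coq10b and Etfdh to Etfa fell, and the others rose. Each had a p of 0.25 in a two-sided exact test over pairs, which is the smallest it can give.

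**Figure D3:**
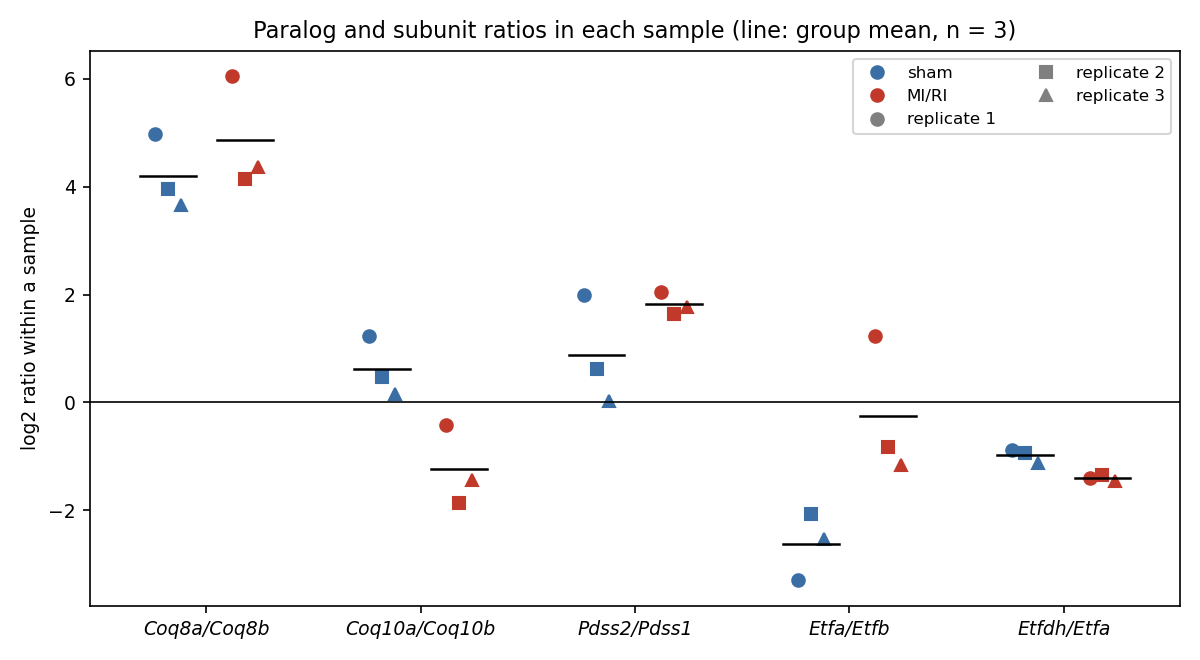
log2 ratio (vertical axis) of 5 gene pairs within each sample, sham in blue and MI/RI in red, with a shape for each replicate number and a line at the group mean (n = 3). Coq10a/Coq10b crosses from above 0 in the sham samples to below 0 in the MI/RI samples, Etfa/Etfb rises and Etfdh/Etfa falls without overlap, and the other pairs overlap.

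The order of the 10 genes by mean FPKM differed between the groups. In sham it ran Etfb, Coq8a, Coq9, Coq7, Etfa, Coq3, Etfdh, Coq10a, Coq5 and Pdss2, and Etfb was the 1 gene set apart from its neighbour in that order, with all 3 sham values above those of Coq8a. In MI/RI it ran Coq9, Coq8a, Etfb, Etfa, Coq7, Coq3, Etfdh, Coq5, Coq10a and Pdss2, and the samples of all neighbours overlapped. In sham 1.96% of the genes tested had a higher mean FPKM than Etfb. Within MI/RI, replicate 1 held the highest value of 9 genes and the lowest of Etfb. In sham, replicate 1 was the highest for 9 genes, and the exception was Etfa.

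The cardiomyocyte markers had the same within-group extremes. Their mean log2 level was 9.31, 8.13 and 7.71 in the sham samples and 11.05, 10.47 and 10.43 in the MI/RI samples. Without both replicate 1 samples, 8 of the 10 genes were again called higher. Relative to the marker mean of the same sample, the log2 level fell by 0.17 for Coq9, 0.30 for Etfa, 0.47 for Coq3, 0.53 for Pdss2, 0.70 for Coq7, 0.73 for Etfdh, 0.75 for Coq5, 0.75 for Coq8a, 1.42 for Coq10a and 2.69 for Etfb. On this scale 0 of the 10 genes were higher, beside 0.32% of all genes tested, and 2 of the 10, Coq10a and Etfb, were lower (limma), beside 81.3% of all. The median of all genes tested was -1.98. Centring takes 1 value from every gene of a sample, so it leaves the distance of a gene from the median of all genes as it was, which was 1.81 above for Coq9, 0.55 above for Coq10a and 0.71 below for Etfb.

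Other cell types showed smaller shifts. Fibroblast markers summed to 420 to 581 FPKM in sham and 605 to 669 FPKM in MI/RI, with 2 of 7 higher (limma), near the 25.5% of all genes tested. Endothelial markers summed to 185 to 236 FPKM and 187 to 216 FPKM, with 0 of 7 past the threshold in either direction. Kdr was just short of it (adjusted p = 0.0501, limma) and was called higher with the replicate number as a block (adjusted p = 0.045, limma). Of the neutrophil and monocyte markers, 3 of the 5 tested were higher, and the 7 of the list summed to 51.5 to 67.4 FPKM in sham and 78.7 to 145 FPKM in MI/RI. None of the 5 adipocyte markers passed the filter, and their sum was at most 2.54 FPKM. Hba-a2, the 1 red blood cell marker found, was at 1061 to 1154 FPKM in sham and 583 to 1672 FPKM in MI/RI. The part of these cell types in the values of the 10 genes was not tested.

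**Figure D4:**
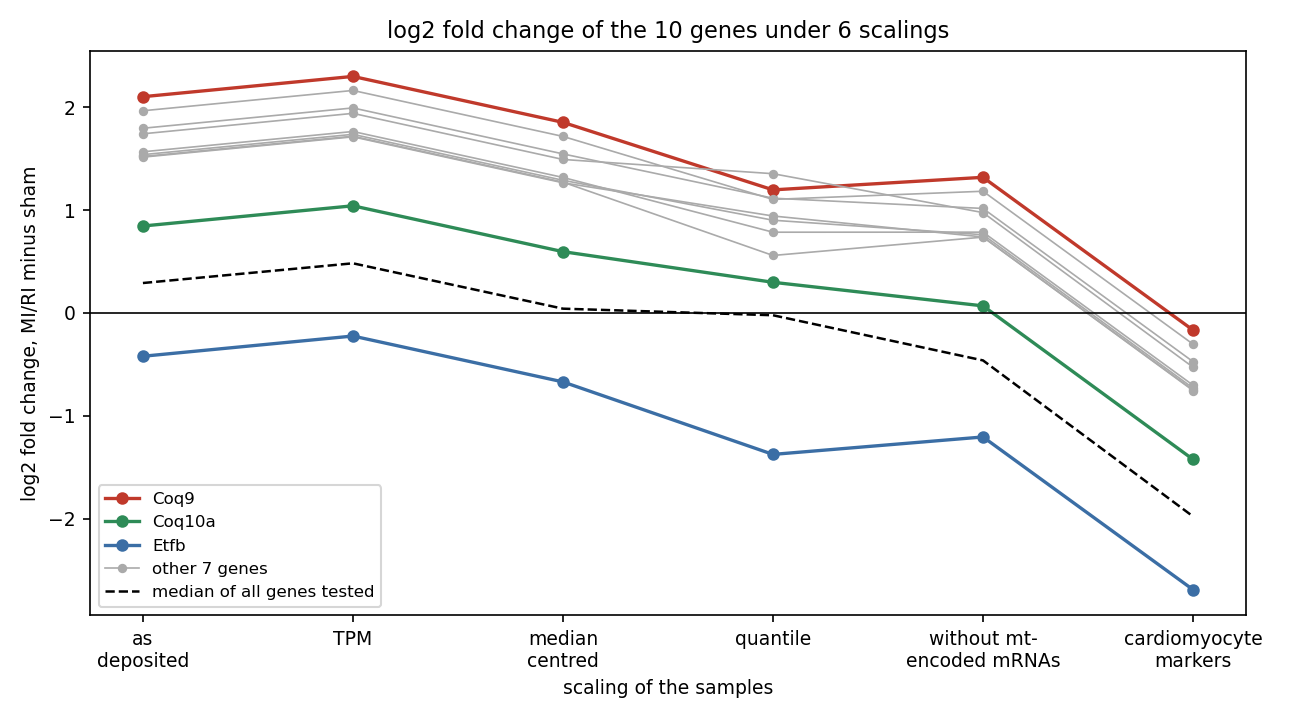
log2 fold change (vertical axis, MI/RI minus sham) of the 10 genes under 6 scalings of the samples (horizontal axis), with Coq9 in red, Coq10a in green, Etfb in blue, the other 7 genes in grey and the median of all genes tested dashed. The lines of Coq9 and Coq10a stay above the dashed line and that of Etfb below it in all 6 settings, while 9 genes pass below 0 with centring on cardiomyocyte markers, where the dashed line is at -1.98.

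The counts of the related lists stand beside the 25.5% of all genes tested that were higher and the 7.36% that were lower by the same rule. Of 7 other genes of coenzyme Q synthesis and handling, 4 were higher (limma) and none lower, with a median log2 fold change of 0.87. Besides Coq10b they were Hpdl, which supplies the ring precursor (1.99, adjusted p = 0.012), Coq6, a ring hydroxylase (1.13, adjusted p = 0.011), and Pdss1, the partner of Pdss2 (0.80, adjusted p = 0.029). The calls for Coq10b and Coq6 were kept in 6 of 6 limma fits that left out 1 sample, that for Hpdl in 5 (adjusted p = 0.052 without sham replicate 2) and that for Pdss1 in 1 (adjusted p up to 0.079, without MI/RI replicate 2). Coq2, which joins tail and ring, had a log2 fold change of 0.87 (adjusted p = 0.11, limma, and 0.031 without MI/RI replicate 2) and Coq4 one of 0.40 (adjusted p = 0.45, limma). Among Pdss2 and the 6 Coq genes described first the same count was 6 of 7, and whether the counts differ was not tested.

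The mevalonate pathway supplies the tail and also cholesterol. Of its 7 genes tested, 4 were higher and 1 was lower (limma), with a median of 1.04. Among the higher genes were Mvd (log2 fold change 1.49, adjusted p = 0.0086, limma), Idi1 (1.41, adjusted p = 0.029) and Hmgcs1 (1.04, adjusted p = 0.011). Ggps1, which makes geranylgeranyl diphosphate, was lower (-0.83, adjusted p = 0.045, limma), but not with the replicate block (adjusted p = 0.051). The mean FPKM of Mvd, Idi1, Hmgcs1 and Ggps1 was under 3 in each group. The sham means of Mvd (0.468 FPKM) and Idi1 (0.403 FPKM) were under the 0.5 of the filter, so both passed it only through MI/RI. Without the filter, the calls for Idi1 and Ggps1 were lost (adjusted p = 0.078 and 0.098, limma). Leaving out 1 sample kept the calls for Mvd and Hmgcs1 in 6 of 6 fits, and those for Idi1 and Ggps1 in 2 each (adjusted p up to 0.12 without MI/RI replicate 2 for Idi1 and 0.17 without sham replicate 3 for Ggps1, limma).

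Upstream of ETF, 8 of the 13 tested dehydrogenases that hand it electrons were higher and none was lower (limma), with a median of 1.15. With 1 sample left out the number higher was 5 to 8. The largest log2 fold changes were those of Acads (2.50) and Acadm (2.40), which oxidize short- and medium-chain fatty acids, Ivd (2.05) of leucine breakdown and Acad10 (1.96). All 4 kept their calls in 6 of 6 fits with 1 sample left out (limma, adjusted p at most 0.044). Acads went from 23.0, 14.1 and 11.8 FPKM in sham to 180, 62.7 and 62.7 FPKM in MI/RI, with MI/RI replicate 1 highest as for Etfa. Acad8, of valine breakdown, and Sardh, of choline breakdown, had log2 fold changes of 0.21 and -0.01 (adjusted p = 0.62 and 0.98, limma). Dmgdh was at 0 FPKM in all 6 samples. Etfrf1, a regulatory factor of ETF, was just past the threshold (0.72, adjusted p = 0.046, limma) and lost its call with any 1 sample left out (adjusted p 0.053 without MI/RI replicate 3 to 0.15 without sham replicate 3). Etfbkmt, the methyltransferase of the beta subunit, was not past it (-0.26, adjusted p = 0.57, limma).

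Other enzymes also pass electrons to coenzyme Q. Of 7 tested, 5 were higher and none lower (limma), with a median of 1.79. The complex II genes Sdhd (2.03), Sdhc (2.01), Sdha (1.94) and Sdhb (1.79) had the largest log2 fold changes, and each kept its call in 6 of 6 fits with 1 sample left out (limma, adjusted p at most 0.049). The fifth, Gpd2 of the glycerol phosphate shuttle, lost its call in all 6 such fits (adjusted p 0.051 without sham replicate 1 to 0.11 without sham replicate 3). Sqor, which oxidizes sulfide, had a log2 fold change of -0.04 (adjusted p = 0.91, limma). The flavin cofactor FAD is needed by Etfa and Etfb, by Etfdh and by Coq6. Of 4 genes of riboflavin and FAD supply that were tested, Flad1, the FAD synthase, was higher (1.53, adjusted p = 0.012, limma), and its adjusted p was 0.055 without sham replicate 2. A count of 1 of 4 is near the 25.5% of all genes tested.

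Among 6 tested regulators of mitochondrial gene expression, 2 were higher (limma), not far from the 25.5% of all genes tested. Ppargc1a, a coactivator of mitochondrial biogenesis, was at 0.813, 1.05 and 0.568 FPKM in sham and 2.68, 3.80 and 2.88 FPKM in MI/RI. Every MI/RI sample was above the sham samples, with a log2 fold change of 1.84 (SE 0.28, adjusted p = 0.0032, limma), and here MI/RI replicate 1 was not the highest. Tfam, which maintains mitochondrial DNA, had a log2 fold change of 0.84 (adjusted p = 0.026) and kept its call in 2 of 6 fits that left out 1 sample (adjusted p up to 0.077, without sham replicate 2, limma). Esrra, Esrrb and Esrrg were under the filter. The count over all related genes includes Mvd, Idi1 and Gpd2, which passed the filter only through MI/RI. Of the 46 tested, 25 were higher and 1 was lower, with a median of 0.89. With centring on cardiomyocyte markers, 0 were higher and 25 lower, beside the 81.3% of all genes tested. For Hspb1, the gene the study follows as Hsp27, the log2 fold change was 2.18 (SE 0.28, adjusted p = 0.0022, limma), next to the 2.10 of Coq9.

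The genes whose profile over the 6 samples was nearest to that of Coq9 were Pdhx, Klhl31, Ndufs1, Ivd and Kcnj11. Nearness was the root mean square difference of mean-centred log2 levels, which was 0.026 for Pdhx, a subunit of the pyruvate dehydrogenase complex, 0.067 for Klhl31, 0.095 for Ndufs1, a complex I subunit, 0.11 for Ivd and 0.12 for Kcnj11. Pdhx was at 3.85, 2.71 and 2.04 FPKM in sham and 24.9, 8.94 and 8.61 FPKM in MI/RI, the same order of samples as Coq9. Among the 10 genes, Etfa (0.25), Etfdh (0.34) and Coq5 (0.36) were nearest to Coq9, and Coq10a (0.65) and Etfb (1.52) were farthest. For Etfb, 86.2% of all genes tested were nearer. All 6 points share the libraries and their composition, so this is a description.

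The sequence before the start of the 10 genes was searched for 3 motifs of factors known to act on mitochondrial genes. RefSeq sequences of build GRCr8 gave 250 bases before the start for all 10 genes and for 27457 promoters in all, read on both strands. The NRF1 motif GCGCNTGCG was in 2 of the 10, Etfb and Etfdh, and in 5.58% of all promoters. Each match is shown here 5′ to 3′ on the strand of the gene with 10 bases on either side, because the matches fall in 1 gene that rose and in the 1 gene with a lower mean, and the capitals mark the match, which reads as the motif on the opposite strand.
Etfb, chr1:102988432-102988460, plus strand, 57 bases before the start: tgttgcggcgCGCAGGCGCagagacagat
Etfdh, chr2:167060907-167060935, minus strand, 167 bases before the start: gcttctagtgCGCACGCGCacatgcgaga
The estrogen-related receptor motif AAGGTCA was in 3.77% of all promoters and the ETS motif CCGGAAGT in 3.29%, each in 0 of the 10. A match is a description of letters and not of binding. Upstream GC content ran from 34.8% for Coq3 to 79.2% for Coq10a, around a median of 52% for all promoters.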

How the data were processed

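The authors deposited 1 table of FPKM values for 30452 genes in 3 sham and 3 MI/RI samples. The submitters' processing notes name STAR and HTSeq, without version or role. The genome build, the annotation, the strand setting and the total behind the FPKM are not given in the sources used here. Genes with close copies or overlapping neighbours are therefore uncertain. Rows sharing a symbol were summed, and 7092 rows without a symbol kept their identifier.

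Log2(FPKM + 0.1) of 10942 genes, those whose FPKM averaged 0.5 or more, was tested with limma 3.58.1 in R 4.3.3 (intensity trend, Benjamini-Hochberg adjustment over all of them, threshold 0.05). Log2 fold changes are on this log2(FPKM + 0.1) scale and are too small for low genes. Standard errors are the moderated ones. The study's methods give no test for the sequencing data. Single ratios were tested by two-sided exact permutation, whose smallest p with 3 against 3 is 0.1. The limma step was tested on simulated data.

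The replicate numbers come from the titles. Across genes, the departures of a sham and an MI/RI sample of 1 number from the mean of their own group correlated at 0.203, 0.117 and 0.118. The highest correlation between samples of different numbers was 0.120, so those of numbers 2 and 3 were not above it. Whether the numbers stand for pairs is not settled by these values. They were taken as pairs, and limma was also run with this number as a block, given beside results whose call it changed.

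The 10 genes, the related lists and the markers were chosen with earlier results of these data known. Named are the 10 genes, the genes of the ratios, Hspb1, up to 4 genes a direction of each related list past the threshold with the largest log2 fold change, and the 5 genes nearest to Coq9. Other genes were named after their values were seen, and 1 gene that the rule names is not reported singly here. The symbols Fdps, Prodh, Pln, Hbb, Alas2 and Hba-a1 were not matched. Alternatives were pseudocounts of 1 and 0.01, no filter or a mean FPKM of at least 5, TPM, median centring, quantile normalization, rescaling without the 13 mitochondrially encoded mRNAs, centring on cardiomyocyte markers, no trend, the replicate block, the highest row per symbol and leaving out samples. FPKM carry no counts, so no counting interval is given.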

Additional observations from a re-analysis of the deposited data

How the results depend on the processing

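With other pseudocounts, other filters, TPM, median centring, no trend or the highest row per symbol, 8 of the 10 genes were again higher. The number of all genes called higher moved in these settings. It was 1892 with a mean FPKM of at least 5, 2198 without a filter, 3449 with TPM and 2020 with median centring. It was 2671 with no trend and 2775 to 2791 with other pseudocounts or the highest row per symbol. Quantile normalization gave 5 higher and 1 lower (Etfb, -1.37), a median of 0.92, and 1441 higher and 1559 lower genes of all tested. The calls lost there were those of Coq3, Coq7 and Coq8a (adjusted p = 0.050, 0.13 and 0.076, limma). Rescaling without the mitochondrially encoded mRNAs gave 6 higher and 1 lower (Etfb, -1.20) and a median of 0.77. It gave 12 higher and 2 lower related genes, and 793 higher and 2857 lower genes of all tested. Coq5 and Etfdh lost their calls with it (adjusted p = 0.073 and 0.064, limma). Centring on cardiomyocyte markers gave 0 higher and 2 lower, a median of -0.72, 0 higher and 25 lower related genes, and 35 higher and 8901 lower of all. Log2 fold changes were then -0.47 for Coq3, -0.75 for Coq5, -0.70 for Coq7, -0.75 for Coq8a, -0.17 for Coq9, -1.42 for Coq10a, -0.53 for Pdss2, -0.30 for Etfa and -0.73 for Etfdh. These scalings moved the median of all genes tested from 0.29 to 0.48 (TPM), 0.04 (median), -0.02 (quantile), -0.46 (without mitochondrially encoded mRNAs) and -1.98 (markers), and the share of calls that were higher from 77.6% to 87.3%, 56.5%, 48.0%, 21.7% and 0.392%. As deposited, 2790 genes were higher and 805 lower. The lower count was 166 with a mean FPKM of at least 5, 504 with TPM and 1554 with median centring, and lower related genes numbered 0, 0 and 2 there and 0 without a filter. With the replicate block, 9 of the 10 genes were higher (Coq10a gained, adjusted p = 0.012) and 0 related genes were lower, and no other call among the 10 changed. Of the related genes it gained Coq8b and Pmvk (adjusted p = 0.034 and 0.040, limma) and lost Ggps1. Leaving out 1 sample gave log2 fold changes of -0.67 to -0.06 for Etfb and rises of 1.64 to 2.84 for Etfa/Etfb, and left 5 to 8 of the 10 genes, 16 to 22 higher and 0 to 1 lower related genes, and 1528 to 2557 higher and 309 to 881 lower genes of all. Without sham replicate 2, Coq5, Coq7 and Pdss2 were lost, 16 related genes were higher and 309 genes of all were lower, and without sham replicate 3 the counts of all genes were 1528 higher and 359 lower. Without both replicate 1 samples, 0 related genes were lower, 2638 genes of all were higher and 1006 lower, Etfb was 0.27 and the rise of Etfa/Etfb was 1.31. The cause of these shifts was not tested. Depth is unknown and limits genes of low FPKM most.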

Other observations

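The genes with the profile nearest to that of Etfb over the 6 samples, by the root mean square difference of mean-centred log2 levels and chosen after their values were seen, were Lmod1 (0.13), which encodes a leiomodin of smooth muscle, Slc11a1 (0.23), a metal transporter of phagocytes, and Trem2 (0.24), a receptor of macrophages. Lmod1 was at 5.51, 1.99 and 2.13 FPKM in sham replicates 1 to 3 and at 1.21, 2.50 and 3.03 FPKM in MI/RI replicates 1 to 3. As for Etfb, sham replicate 1 was the highest sample and MI/RI replicate 1 the lowest. None of the 3 genes passed the limma threshold between the groups (adjusted p = 0.47, 0.59 and 0.22), and the groups overlapped for Lmod1 and Slc11a1.

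Pmvk and Mvk, the kinases of the mevalonate pathway, were higher in every MI/RI sample than in every sham sample. Neither passed the limma threshold in the unpaired fit. For Pmvk the groups nearly touched, at 10.87 FPKM in sham replicate 1 and 10.89 FPKM in MI/RI replicate 2. Pmvk was at 10.9, 7.18 and 6.61 FPKM in sham and 14.7, 10.9 and 12.5 FPKM in MI/RI (adjusted p = 0.079, limma, and 0.040 with the replicate number as a block). Mvk was at 2.12, 2.51 and 1.43 FPKM in sham and 4.92, 2.73 and 3.02 FPKM in MI/RI (adjusted p = 0.070, limma). Both were called higher with TPM (adjusted p = 0.045 for Pmvk and 0.041 for Mvk, limma) and lower with centring on cardiomyocyte markers (adjusted p = 0.0042 and 0.025), as 81.3% of all genes tested were. Slc25a32, the carrier of flavin into mitochondria, was lower in every MI/RI sample than in every sham sample, at 1.27, 1.85 and 1.31 FPKM against 1.19, 1.11 and 0.892 FPKM (adjusted p = 0.23, limma). It was called lower with median centring (adjusted p = 0.031, limma), without the mitochondrially encoded mRNAs (adjusted p = 0.022) and with centring on cardiomyocyte markers (adjusted p = 5.2e-04). All MI/RI samples lay above all sham samples in 37.2% of the genes tested and below them in 13%.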
